A study of Mus musculus with 16 samples.

Results

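Chromatin accessibility of FOXD3-depleted mouse embryonic stem cells was compared between the LS and the ES fraction of a sort by DNA content. The comparison takes the 4HT LS group (2 libraries) and the 4HT ES group (2 libraries), 4 of the 16 libraries of the series. All cells carried the FOXD3-iKO genotype and were grown in L2i medium, and the treatment time was 24 h. 4HT is tamoxifen, which induced the depletion of FOXD3. EtOH is the ethanol control given to cells of the same genotype, and its LS and ES groups (2 libraries each) serve as a second pair that shares no library with the 4HT pair. Cells were labelled with DAPI, a DNA dye, and sorted into G1, ES, LS and G2. The labels do not spell out ES and LS, and here ES is always the fraction. They do not say which allele was made inducible, whether the line is 1 clone, or whether same-numbered libraries share a culture.

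ATAC-seq uses a transposase that cuts open DNA and inserts sequencing adaptors, so that reads gather at promoters, enhancers and other sites free of nucleosomes. A cell in S phase copies its genome in a set order, and gene-rich DNA is generally copied before gene-poor DNA, so the number of DNA copies per cell differs along the chromosomes until S phase ends. FOXD3 belongs to the forkhead family, is made in pluripotent cells and in the neural crest, binds enhancers and is best known as a repressor of transcription.

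The signal was deposited for 127646 accessible regions, with a median width of 252 bp, and for 38053 distinct windows of 5 kb around transcription start sites (TSSs). Each group is 1 pooled column, so a value has no SD and a difference within 4HT has no test. The smallest signal in a column is the worth of 1 read, and levels below are multiples of that value. The implied depth was 11.1 M reads in 4HT LS and 9.75 M in 4HT ES, against 8.17 M in EtOH LS and 8.38 M in EtOH ES. Of all regions, 117080 had a read in 4HT LS or 4HT ES, and 37054 windows did. Differences were computed for 11010 regions and 15323 windows that held a read in all 8 columns of the series and had a mean multiple of at least 2 (regions) or 1.3 (windows).

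The 5 kb window of Foxd3, the targeted gene (chr4:99653650-99658649), stood at 1.56 in 4HT LS and 1.54 in 4HT ES, at 1.65 in 4HT G1 and 1.5 in 4HT G2, and at 1.27 in EtOH LS and 1.63 in EtOH ES, 1.53 in EtOH G1 and 1.23 in EtOH G2. The window was read at a similar low level in both treatments, and accessibility around a gene does not check its depletion. The windows of 10 ES-cell marker genes (Pou5f1, Nanog, Zfp42 and others) had a median multiple of 1.91 in 4HT LS and 2.10 in 4HT ES, against 1.35 in LS and 1.3 in ES over all named windows. Those of 9 measured fibroblast genes, which would mark feeder cells, had a median of 1.19 in 4HT LS and 1.26 in 4HT ES.

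Few of the compared 5 kb windows were past 1.5-fold between LS and ES, and promoters of 5 genes in such windows are shown by sequence before their values. The 250 bases before the TSS of 3 genes whose window was higher in LS (Usp36, Zbtb5, Mad2l1) and of 2 whose window was lower (Ncl, Mbd4) are from RefSeq (GRCm38.p6), 5′ to 3′ on the gene's strand. Capitals mark matches, on either strand, to GTAAACA (a forkhead core), CCAAT (bound by NF-Y), TTTGGCGC or TTTCCCGC (E2F), TTTGAA (the cell cycle element CHR) and GGGCGG (Sp and KLF factors). The stretches lie at chr11:118290245-118290494, minus strand (Usp36), chr4:45012413-45012662, minus strand (Zbtb5), chr6:66534971-66535220, plus strand (Mad2l1), chr1:86359456-86359705, minus strand (Ncl) and chr6:115853342-115853591, minus strand (Mbd4).
Usp36: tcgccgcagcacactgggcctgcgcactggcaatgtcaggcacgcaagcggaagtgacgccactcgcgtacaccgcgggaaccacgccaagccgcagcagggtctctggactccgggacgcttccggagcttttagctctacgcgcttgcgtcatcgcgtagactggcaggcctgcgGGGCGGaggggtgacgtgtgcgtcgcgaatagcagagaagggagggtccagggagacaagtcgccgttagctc
Zbtb5: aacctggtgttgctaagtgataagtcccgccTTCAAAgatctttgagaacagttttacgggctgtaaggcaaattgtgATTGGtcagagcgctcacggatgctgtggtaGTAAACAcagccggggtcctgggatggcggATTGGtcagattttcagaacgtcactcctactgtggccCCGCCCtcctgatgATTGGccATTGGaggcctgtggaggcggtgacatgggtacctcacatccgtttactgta
Mad2l1: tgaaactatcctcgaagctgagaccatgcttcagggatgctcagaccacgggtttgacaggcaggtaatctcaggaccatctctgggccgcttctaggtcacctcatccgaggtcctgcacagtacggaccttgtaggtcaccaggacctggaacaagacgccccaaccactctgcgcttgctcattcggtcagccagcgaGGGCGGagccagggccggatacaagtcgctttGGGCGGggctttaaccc
Ncl: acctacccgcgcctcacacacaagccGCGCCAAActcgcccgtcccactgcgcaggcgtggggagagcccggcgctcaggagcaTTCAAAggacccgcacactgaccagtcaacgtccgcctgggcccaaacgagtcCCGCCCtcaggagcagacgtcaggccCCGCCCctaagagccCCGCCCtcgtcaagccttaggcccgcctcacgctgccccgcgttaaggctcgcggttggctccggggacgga
Mbd4: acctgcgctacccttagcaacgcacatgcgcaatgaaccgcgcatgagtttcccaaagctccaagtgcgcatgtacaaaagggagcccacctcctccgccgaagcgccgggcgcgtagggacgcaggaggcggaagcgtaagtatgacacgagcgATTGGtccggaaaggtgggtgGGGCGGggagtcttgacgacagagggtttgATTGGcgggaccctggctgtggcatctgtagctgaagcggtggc

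Zbtb5 carries the forkhead core, a CHR match and 4 CCAAT matches in this stretch, Ncl carries an E2F match, and each of the 5 carries at least 1 GGGCGG. A match is a description of the letters and no evidence of binding.

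Gene-poor DNA was read more in LS than in ES, relative to gene-rich DNA, and this held in both treatments. In 4HT, 20198 regions had a read in LS and none in ES (15.8% of all regions), and 14849 had a read in ES and none in LS (11.6%). LS was thus the fraction with the read in 57.6% of these regions (exact 95% interval 57.1 to 58.1), in a pair in which LS was also the deeper column. In EtOH, 20006 regions were read in LS only (15.7%) and 19719 in ES only (15.4%), a share of 50.4%, in a pair of nearly equal depth. Of the 5 kb windows, 343 were read in LS only (0.901%) and 241 in ES only (0.633%) in 4HT, and 388 (1.02%) and 339 (0.891%) in EtOH. The intervals cover counting error only. More DNA copies and more open DNA per copy cannot be told apart in these data, nor can a change in every cell and a change in some of them.

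The genome was cut into 1 Mb bins, and the bins that hold a region were split into quintiles by the number of TSS windows in them, a grouping chosen after seeing the data. In 4HT the LS-only share was 60.3% in the sparsest quintile, with up to 4 TSS windows per bin (3157 regions read in LS only and 2081 in ES only). It was 59.6%, 58.4% and 56.5% in the next quintiles and 54.1% in the densest, with 23 to 211 TSS windows (3820 against 3242 regions). The intervals of the sparsest quintile (58.9 to 61.6) and the densest (52.9 to 55.3) did not overlap. In EtOH the share was 53.5% in the sparsest quintile and 45.8% in the densest, with the other quintiles between them and in the same order. The share stepped down from each quintile to the next in both treatments, about an offset that differed between treatments together with depth.

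**Figure D1:**
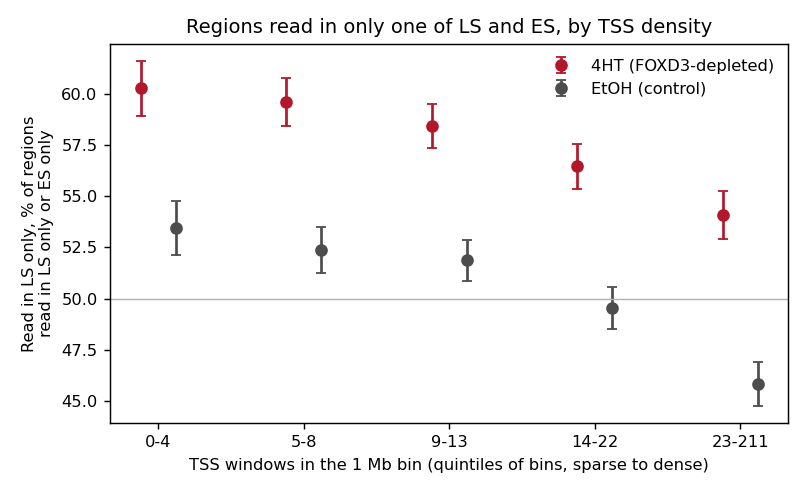
Share of regions read in LS only among regions read in either LS only or ES only (y axis, percent), for quintiles of 1 Mb bins by the number of TSS windows per bin (x axis), in 4HT and EtOH. Points are shares of pooled columns and bars are exact 95% intervals for counting error; the share is 60.3% and 54.1% at the ends in 4HT, and 53.5% and 45.8% in EtOH.

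The share of regions with a read gives the mean number of reads per region, if reads fall on regions at random, and this number was divided by depth. So measured, LS held 1.08 times as much as ES in the sparsest quintile of 4HT, then 1.05, 1.02 and 0.978 times, and 0.933 times in the densest quintile. The same ratios in EtOH were 1.10, 1.07, 1.06, 1.02 and 0.962. LS lay above ES in gene-poor bins and below ES in the gene-richest bins of both treatments.

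Taken within each column, the densest quintile held 1.59 times the implied reads per region of the sparsest in 4HT LS and 1.84 times in 4HT ES. In EtOH the ratio was 1.64 in LS and 1.88 in ES. The ratio was 1.6 in G1 and 1.65 in G2 of 4HT cells, and 1.66 in G1 and 1.58 in G2 of EtOH cells. Both ES columns stood above the other 6, while the LS columns lay within the range of G1 and G2. Over both treatments LS averaged 1.61 and ES 1.86 (exact permutation test, two-sided, n = 2 columns each, p = 0.333, the smallest p that 2 against 2 can give). The LS minus ES difference of this ratio was -0.25 in 4HT and -0.24 in EtOH.

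**Figure D2:**
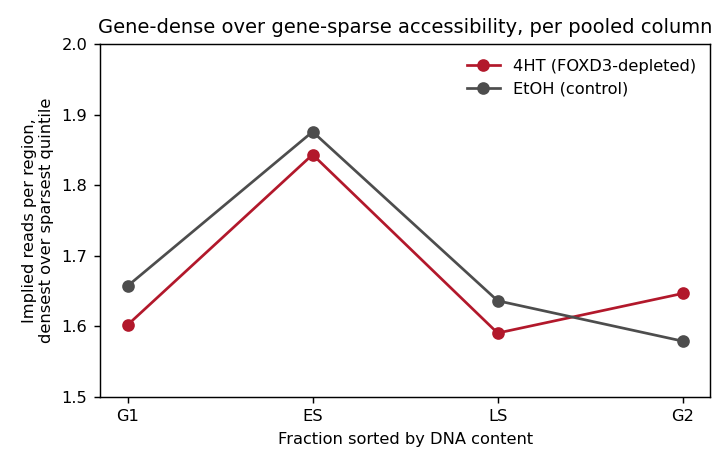
Implied reads per region in the densest quintile of 1 Mb bins divided by those in the sparsest quintile (y axis, ratio; the axis starts at 1.5), for the 4 DNA content fractions (x axis) in 4HT and EtOH. Each point is 1 pooled column; the ES columns are at 1.84 and 1.88 and the other 6 between 1.58 and 1.66.

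Distance from a TSS showed a related pattern. Beyond 100 kb from any TSS, where many regions are distal elements of gene deserts, 71.2% of 16197 regions were read in 4HT LS and 62.9% in 4HT ES. There 3696 regions were read in LS only and 2355 in ES only, a share of 61.1% (59.8 to 62.3). In EtOH the share beyond 100 kb was 54.3%. Within 1 kb of a TSS, at promoters, 91.6% of 20254 regions were read in 4HT LS and 89.6% in 4HT ES, and the LS-only share was 58.1%. The share was 55.7% at 1 to 10 kb and 57.2% at 10 to 100 kb. Per depth, LS held 1.10 times the implied reads of ES beyond 100 kb, the same amount at 10 to 100 kb (ratio 1.0), 0.965 at 1 to 10 kb and 0.963 within 1 kb.

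TSS density and distance were then crossed. At 10 to 100 kb the 4HT LS-only share was 60.01% in the sparsest quintile and 53.3% in the densest, and at 1 to 10 kb it was 61.8% and 53.6%. Regions beyond 100 kb had a high share in each quintile of 4HT, between 58.5% in the densest and 63.0% in the middle one, although only 305 of them lie in the densest bins. Per depth, LS held 1.02 times the implied reads of ES in the densest quintile and 1.15 times in the middle one. In EtOH the share beyond 100 kb was 54.6% in the sparsest quintile, 53.9% in the middle one and 47.6% in the densest. Regions within 1 kb showed no steady order in 4HT, with 55.2% in the sparsest quintile, 59.4%, 59.3% and 59.2% in the next ones and 57.0% in the densest. The 4HT intervals of the promoter regions in the sparsest quintile (46.4 to 63.8) and the densest (54.0 to 59.9) overlapped. In EtOH the share within 1 kb was highest in the sparsest quintile (54.4%) and lowest in the densest (46.2%), with 49.5%, 52.0% and 51.1% between them. Wide regions had a higher share than narrow ones, 66.2% over 500 bp and 56.3% up to 200 bp in 4HT, against 52.4% and 49.6% in EtOH. Per depth the widths differed less. LS held 1.04 times the implied reads of ES over 500 bp and 1.01 times up to 200 bp in 4HT, and 1.05 and 1.02 times in EtOH.

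The levels of well-read regions were also higher in LS at the sparse end than at the dense end, though not in a strict order. Among regions compared by level, the median LS minus ES difference in 4HT was 0.08 (log2) in the sparsest quintile, 0.08, 0.05 and 0.00 in the next ones and -0.03 in the densest. In EtOH it was 0.12 in the sparsest quintile and -0.05 in the densest. For TSS windows the median in 4HT was 0.06 in the sparsest quintile, 0.03, 0.0127 and 0.0149 in the next ones and -0.01 in the densest, and in EtOH it was 0.05 in the sparsest and -0.02 in the densest. These are changes relative to the centre of all columns, since without centring the median 4HT difference of all regions was 0.13, and that of the windows -0.04. The 420 compared regions beyond 100 kb had a median difference of 0.13 in 4HT and 0.19 in EtOH. Their median multiple was 3.21 in 4HT LS and 2.17 in 4HT ES. Multiples are not adjusted for depth, and LS was the deeper column. Compared regions within 1 kb of a TSS stood at 3.38 in 4HT LS and 2.67 in 4HT ES, with a median difference of -0.006.

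By chromosome, the LS-only share in 4HT was highest on X (61.8%, interval 58.8 to 64.7), 16 (60.8%) and 14 (60.6%), and lowest on 9 (54.8%) and 4 (54.6%, interval 52.3 to 56.8). Neighbours in this order overlapped in their intervals, while X and 4 did not. In EtOH the share was 53.3% on X, 51.5% on 16, 51.0% on 14, 48.9% on 9 and 49.1% on 4, and chromosome 13 was highest at 54.0%. Across 20 chromosomes the shares of the treatments correlated with r = 0.64. The correlation with the number of TSS windows per Mb was r = -0.29 in 4HT and -0.23 in EtOH. These are descriptions over points that share the same libraries and depth.

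**Figure D3:**
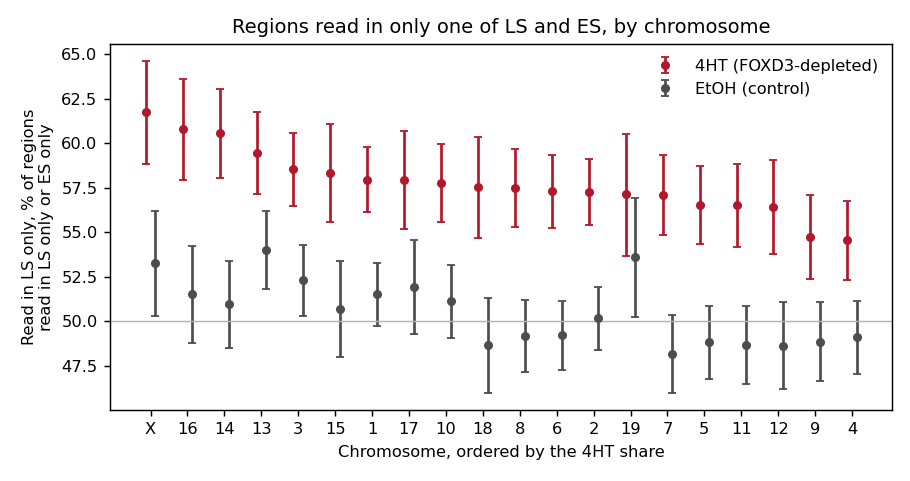
Share of regions read in LS only among those read in either LS only or ES only (y axis, percent), for each chromosome with at least 40 regions (x axis, ordered by the 4HT share), in 4HT and EtOH. Bars are exact 95% intervals for counting error; X is highest at 61.8% and 4 lowest at 54.6% in 4HT.

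At 1 Mb, the share of a bin's regions with a read was compared over 1487 bins with at least 40 regions. Its LS minus ES difference in 4HT correlated with that in EtOH at r = 0.21 and with log2(TSS windows + 1) at r = -0.29. In EtOH the correlation with TSS windows was r = -0.22. The 100 bins that gained most in 4HT LS held a median of 8 TSS windows and 63 of them were above 0 in EtOH. The 100 bins that lost most held a median of 19.5 and 37 were above 0 in EtOH, beside a median of 14 and 654 above 0 among all 1487.

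Among the bins with the largest gains, the one on chromosome 10 at 105 to 106 Mb (Tmtc2, Mettl25) had 48 of 56 regions read in 4HT LS and 32 in 4HT ES, and 40 in EtOH LS and 28 in EtOH ES. The bin at 24 to 25 Mb of the same chromosome (Enpp1, Ccn2, Arg1) had 48 of 57 in 4HT LS and 33 in 4HT ES, and 36 in each EtOH fraction. LS was thus above ES in both treatments in the bin of Tmtc2, and in 4HT alone in the bin of Enpp1.

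The largest loss was on chromosome 4 at 143 to 144 Mb, a cluster of Pramel genes, with 44 of 65 regions read in 4HT LS and 55 in 4HT ES, and 41 in EtOH LS and 47 in EtOH ES. Pramel genes are near-identical copies, and how reads were shared among them is not given in the sources used here. On chromosome 7, the bin at 35 to 36 Mb (Cebpa, Cebpg) had 62 of 74 regions read in 4HT LS and 73 in 4HT ES, and the bin at 121 to 122 Mb (Scnn1b, Scnn1g, Hs3st2) had 37 of 54 in LS and 45 in ES. In EtOH the bin of Cebpa had 61 regions read in LS and 62 in ES, and the bin of Scnn1b had 33 in LS and 34 in ES. Both chromosome 7 bins were thus close to equal in EtOH, while the Pramel bin was lower in LS in both treatments.

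Single intervals repeated far less than the regional order. In 4HT, 1111 of the 11010 compared regions were past 1.5-fold higher in LS (10.1%) and 1124 lower (10.2%). Without centring the split was 1739 higher and 730 lower. Of the 1111 regions higher in 4HT LS, 184 (16.6%) were past 1.5-fold higher in EtOH LS too and 136 (12.2%) were past it the other way. Of the 1124 lower ones, 177 (15.7%) were lower in EtOH and 127 (11.3%) higher, beside 11.2% higher and 11.6% lower among all regions in EtOH. The differences of the treatments correlated at r = 0.07 across regions, and 52.4% had the same sign. The correlation was 0.05 for regions at 2 to 3 times the 1-read value, 0.11 and 0.13 at the next levels and 0.26 for the 70 regions above 10.

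**Figure D4:**
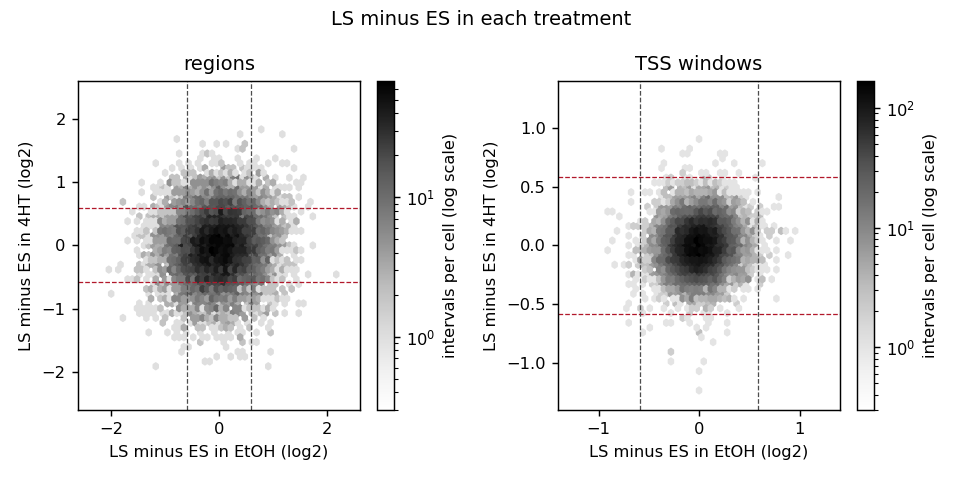
LS minus ES difference in 4HT (y axis, log2) against that in EtOH (x axis, log2), for 11010 regions (left) and 15323 TSS windows (right), shaded by the number of intervals on a log scale. Dashed lines mark 1.5-fold; the clouds have almost no slope (r = 0.07 for both).

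Regions past 1.5-fold lay in sparse and dense bins about as often as all compared regions did, but their direction differed. The sparsest quintile of bins held 4.83% of them and 4.16% of all compared regions, and the densest held 50.7% and 50.02%. In the sparsest, 76 were higher in LS and 32 lower, and in the densest 492 were higher and 641 lower. Of 420 compared regions beyond 100 kb from a TSS 78 were higher and 28 lower, and of 5558 within 1 kb 404 were higher and 452 lower. The limma fit over all 8 columns, which takes the treatments as repeats of the LS minus ES contrast, called 0 regions at an adjusted p of 0.05. At an unadjusted p under 0.05 there were 720 (6.54%), and the smallest adjusted p was 0.333. Such p-values reflect how pooled columns vary and say nothing of how cultures vary.

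Among regions with the same sign in both treatments, the largest rise apart from one near the predicted gene Gm3993 was 5920 bp from Pex7 (chr10:19913759-19914242), a gene for a receptor that imports enzymes into peroxisomes. Its multiple was 7.44 in 4HT LS and 1 in 4HT ES, and 5.37 in EtOH LS and 1.69 in EtOH ES. It was thus at the 1-read floor in 4HT ES, and the differences were 1.77 (log2) in 4HT and 1.14 in EtOH. The region near Gm3993 (chr12:20196407-20196572), 124675 bp from it, stood at 9.27 in 4HT LS and 1.28 in 4HT ES, with a difference of 1.86 in 4HT and 0.75 in EtOH. A region 810 bp from Agbl5, a tubulin deglutamylase gene, one over the TSS of Fkbp7, a chaperone gene of the endoplasmic reticulum, and one 7476 bp from Tmem11, a mitochondrial membrane gene, had differences of 1.74, 1.64 and 1.58 in 4HT, and 0.41, 0.14 and 0.49 in EtOH.

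The largest fall was 5556 bp from Gm13400 (chr2:30918794-30918951), with 1 in 4HT LS and 5.66 in 4HT ES, and 1 in EtOH LS and 3.03 in EtOH ES. LS was at the 1-read floor in both treatments, and the differences were -1.93 in 4HT and -1.17 in EtOH. Regions near Ap1m1 (a clathrin adaptor subunit), Ldb3 (a muscle Z-disc protein), the torsin gene Tor1a and Mir1900 had 4HT differences of -1.85, -1.85, -1.76 and -1.66. In EtOH these were -0.17, -0.27, -0.09 and -0.70. The 3 of them near Ldb3, Tor1a and Gm13400 were at 1 read in 4HT LS, so the size of the fall is limited by that floor. The regions near Gm13400, Ap1m1, Tor1a and Mir1900 passed the minimum of 2 only through their ES columns. The region near Tmem11 named above passed it only through its LS columns. The differences of these regions cannot be read as support for a change.

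Of the regions that passed 1.5-fold the same way in both treatments, the highest smaller difference was 162237 bp from 4930596D02Rik on chromosome 14, at 6.97 in 4HT LS and 1.22 in 4HT ES, and 6.63 in EtOH LS and 1.75 in EtOH ES. A region over the TSS of Ticam1, the Toll-like receptor adaptor TRIF, stood at 1.45 in 4HT LS and 4.51 in 4HT ES, and 1 in EtOH LS and 3.34 in EtOH ES. A region 2127 bp from Mvp, the major vault protein gene, stood at 4.54 in 4HT LS and 1 in 4HT ES, and 4.88 in EtOH LS and 1.11 in EtOH ES. These regions were picked after their values were seen, and none was called by the fit, with adjusted p-values (limma) of 0.617 near 4930596D02Rik, 0.522 at Ticam1 and 0.333 near Mvp.

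The most strongly read regions of the table, a pair near Gm10222 on chromosome 1, moved in opposite directions. The region at 24613019-24613216 stood at 8896 times the 1-read value in 4HT LS and 7000 in 4HT ES, a difference of 0.23, and at 0.31 in EtOH. The region at 24612660-24612847 stood at 271 in 4HT LS and 412 in 4HT ES, a difference of -0.95, and at -0.46 in EtOH. The median multiple of regions read was only 1.32 in 4HT LS and 1.20 in 4HT ES. Where the reads of this pair came from was not tested, and how reads were placed is not given in the sources used here.

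Windows of 5 kb around a TSS differed less than single regions. The SD of the 4HT difference was 0.18 (log2) over windows and 0.47 over regions, and it was 0.20 and 0.49 in EtOH. In 4HT, 26 of 15323 windows were past 1.5-fold higher in LS (0.17%) and 28 lower (0.183%), and in EtOH 0.398% were higher and 0.307% lower. Without centring the 4HT split was 52 higher and 28 lower, and with the median set to 0 in place of loess it was 84 and 17. Some windows overlap, and 23 of the higher and 23 of the lower ones do not. In EtOH, 14 of the 26 higher windows were above 0 and 14 of the 28 lower ones were below 0, and 1 of each was past 1.5-fold there. Of the 26 higher windows 14 lie in the densest quintile of bins, and of the 28 lower ones 22, beside 57.8% of all compared windows in these bins.

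The largest rise with the same sign in EtOH was at Usp36 (window chr11:118287895-118292894), a nucleolar deubiquitinase, whose promoter is printed above. Its multiple was 4.28 in 4HT LS and 1.51 in 4HT ES, and 1.96 in EtOH LS and 1.79 in EtOH ES. 4HT LS alone was high, since G1 and G2 of 4HT cells stood at 1.95 and 2.16, and the difference was 0.90 in 4HT and 0.02 in EtOH. Zbtb5, a zinc finger repressor gene that shares its window (chr4:45010181-45015180) with the lncRNA 1700055D18Rik, stood at 7.86 in 4HT LS and 3.09 in 4HT ES, and 4.64 in EtOH LS and 3.16 in EtOH ES. Its difference was 0.77 in 4HT and 0.22 in EtOH. The same sign in EtOH was a condition for naming these windows, so it does not show that a difference repeated.

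Mad2l1, the spindle checkpoint protein MAD2 (window chr6:66532741-66537740), stood at 3.91 in 4HT LS and 1.56 in 4HT ES, and 2.28 in EtOH LS and 1.64 in EtOH ES. Its difference was 0.77 in 4HT and 0.26 in EtOH. Zfp444, a zinc finger gene, stood at 6.24 in 4HT LS and 2.69 in 4HT ES, and Hmgcs1, a cholesterol synthesis enzyme, at 4.61 in 4HT LS and 2.11 in 4HT ES. Their EtOH differences were 0.33 and 0.37, with the sign again fixed by the condition for naming. Eif1, a translation initiation factor, stood at 3.72 in 4HT LS and 1.66 in 4HT ES, a difference of 0.63 in 4HT and 0.05 in EtOH.

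Ncl, nucleolin (window chr1:86357106-86362105), had the largest fall that met the same conditions, with 2.73 in 4HT LS and 4.27 in 4HT ES. It stood at 3.23 in EtOH LS and 2.87 in EtOH ES, and the centred difference was -0.74 in 4HT and -0.02 in EtOH. Mbd4, a glycosylase that repairs deaminated CpG sites, shares a window (chr6:115851022-115856021) with the ciliary gene Ift122 and stood at 1.66 in 4HT LS and 2.96 in 4HT ES, and 1.70 in EtOH LS and 2.69 in EtOH ES. Its differences were -0.73 in 4HT and -0.55 in EtOH, the shared sign being a condition for naming, and the limma adjusted p over both was 0.171. Windows of Cggbp1 (a repeat-binding protein) with Zfp654, of Glrx5 (iron-sulphur cluster assembly) with Snhg10, and of Tspyl2 (an X-linked nucleosome assembly protein) fell by 0.67, 0.66 and 0.62 in 4HT, and their EtOH differences were -0.30, -0.10 and -0.17. The windows of Usp36 and Mad2l1 reached the mean multiple of 2 needed for naming only through their LS columns. Those of Mbd4 and Tspyl2 reached it only through their ES columns. The differences of these windows cannot be read as support for a change.

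Vmn2r-ps20, a vomeronasal receptor pseudogene on chromosome 4, was the lower window that passed 1.5-fold in both treatments. It stood at 2.10 in 4HT LS and 3.24 in 4HT ES, and at 1.68 in EtOH LS and 2.84 in EtOH ES, differences of -0.65 and -0.68, with a limma adjusted p of 0.171. The higher window that did so was Gm10476, a predicted protein-coding gene on chromosome 12. Both belong to families with many similar copies or to predicted genes, so the placing of their reads is uncertain. The largest falls of all named windows, Gm3667 and Cfap36, were just above 0 in EtOH, and are named after their values were seen. Gm3667 stood at 1.48 in 4HT LS and 3.68 in 4HT ES, a difference of -1.08 in 4HT and 0.02 in EtOH, and Cfap36, a ciliary gene, had -0.996 in 4HT and 0.04 in EtOH.

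Across both treatments the limma fit called 2 windows higher in LS (0.0131%) and 0 lower, at a Benjamini-Hochberg adjusted p of 0.05. At an unadjusted p under 0.05 there were 997 (6.51%). Gm10476 (chr12:22464657-22469656) stood at 2.38 in 4HT LS and 1 in 4HT ES, and at 1.99 in EtOH LS and 1 in EtOH ES. Its fitted difference was 0.67 (SE 0.11, adjusted p = 0.00397), with ES at the 1-read floor in both treatments and G1 and G2 between 1 and 1.53. Tmem200c (chr17:68834487-68839486), a transmembrane protein gene, stood at 2.07 in 4HT LS and 1 in 4HT ES, and at 1.97 in EtOH LS and 1.11 in EtOH ES, with a fitted difference of 0.56 (SE 0.10, adjusted p = 0.0176). LS was the highest fraction of both windows in both treatments. Both passed the minimum of 1.3 through their LS columns, since the mean multiple of Gm10476 was 1.39 over 8 columns and 1.12 over the 6 without LS, and that of Tmem200c 1.301 and 1.06, so these calls cannot be read as support for a higher LS. The adjusted p of both windows was 0.9999 without centring and 0.879 with 1 Mb medians removed, and Tmem200c also missed the threshold in 4 other settings given below.

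Promoters of the windows past 1.5-fold were read for motifs over the 250 bases before the TSS, in 20 promoters of higher windows, 17 of lower ones and 9838 of all compared windows. CCAAT was found in 8 of 20 higher and 11 of 17 lower ones (64.7%), against 38.2% of all compared. GGGCGG was found in 65.0% of higher and 76.5% of lower ones, against 61.0%. E2F sequences were found in 2 of 20 and 3 of 17 (17.6%), against 2.602%, TTTGAA in 3 and 1, against 10.2%, and the forkhead core in 1 and 0, against 1.88%. Among all 32851 promoters of the RefSeq table the shares were 33.8% for CCAAT, 32.7% for GGGCGG, 1.3% for E2F, 15.99% for TTTGAA and 3.17% for the forkhead core. The median number of CpG sites was 14 in higher, 22 in lower and 16 in all compared promoters. The counts are small, and promoters sharing a window are counted separately.

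Genes in 22 lists that fit the cells and the sort were then read in these windows. Of 493 compared windows of listed genes, 0 were past 1.5-fold in 4HT and 0 were called by limma. Beside them, 19 were higher and 18 lower among the 11608 named windows used for this comparison, whose median difference was 0.00. These are not all windows with a symbol, since only 3 of the 26 higher and 7 of the 28 lower windows had none. Mad2l1 is in none of the lists. List medians in 4HT lay between -0.07 and 0.19, and those of the DNA methylation, two-cell-like and Hox lists changed sign with no level minimum.

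Origin licensing and replication fork genes (MCM, ORC, GINS, polymerases) had a median difference of -0.07 over 48 windows in 4HT and -0.04 in EtOH, and 20 of 48 were above 0 in 4HT. Cdc7, the kinase that fires origins, was highest at 0.38 (2.01 in 4HT LS and 1.24 in 4HT ES), and Orc6, a subunit of the origin recognition complex, lowest at -0.47 (2.76 in LS and 3.52 in ES). In EtOH both were near 0, at 0.02 and -0.06. Pcna, the sliding clamp, was lower in LS in both treatments, at 2.55 in 4HT LS and 2.87 in 4HT ES, and at 2.16 in EtOH LS and 3.46 in EtOH ES, differences of -0.34 and -0.66, with a limma adjusted p of 0.642. Pcna is neither the highest nor the lowest of this list and is named after its values were seen.

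Replication-dependent histone genes, which are expressed in S phase, had a median difference of 0.12 in 4HT and 0.02 in EtOH over 41 windows. In 4HT 31 of them were above 0 (75.6%), against 49.97% of the 11608 named windows, and in EtOH 27 were. The cluster on chromosome 13 gave 32 of these windows (25 above 0 in 4HT and 24 in EtOH) and that on chromosome 3 gave 9 (6 and 3). Many overlap, and 25 of the 41 do not. H3c1 was highest, at 2.66 in 4HT LS and 1.27 in 4HT ES, but at 2.14 in EtOH LS and 2.32 in EtOH ES, and H2ac15 lowest at -0.28 in 4HT and 0.25 in EtOH.

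G2 and mitosis genes had a median of 0.01 over 33 windows. Sgo1, which protects the cohesion of sister centromeres, was highest at 0.44 in 4HT and 0.29 in EtOH (3.15 in 4HT LS and 1.75 in 4HT ES), and the mitotic kinesin Kif20b lowest at -0.38 and -0.25. Genes of G1 and S (cyclins, kinases, inhibitors and E2Fs) had a median of -0.03 over 23 windows. E2f8, a repressor of E2F targets, stood at 3.06 in 4HT LS and 1.54 in 4HT ES, and at 1.93 in EtOH LS and 2.06 in EtOH ES. E2f4 was lowest at -0.24 in 4HT and -0.21 in EtOH. The replication checkpoint list had a median of 0.02 over 21 windows, with the kinase gene Atm highest at 0.31 in 4HT and -0.12 in EtOH, and Etaa1, an activator of ATR, lowest at -0.49 in 4HT and 0.11 in EtOH.

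Naive pluripotency genes had a median of -0.04 in 4HT and 0.04 in EtOH over 17 windows. Klf4 was highest at 0.17 in 4HT and 0.19 in EtOH, and Tfcp2l1 lowest at -0.32 and -0.06. The median of formative and primed genes was -0.03 for 9 windows (Zic2 0.39, Lef1 -0.17). Lineage lists were close to 0, with medians of 0.03 for neuroectoderm (8 windows, Sox1 0.14 and Tubb3 -0.21), 0.05 for mesendoderm (10 windows, Eomes 0.34 and Cdx1 -0.04), 0.07 for primitive endoderm (4 windows, Lamc1 0.12 and Sparc 0.01) and 0.01 for neural crest (7 windows, Msx2 0.23 and Msx1 -0.06). Two-cell-like genes had a median of 0.10 over 5 windows (Tdpoz3 0.27, Tmem92 -0.06), and -0.02 over 13 with no minimum, and fibroblast markers -0.03 over 5 (Col1a1 0.14, Mmp2 -0.07). The forkhead family had -0.02 over 23 windows (Foxd4 0.29, Foxr1 -0.28) and Hox clusters -0.05 over 9 (Hoxc13 0.12, Hoxa10 -0.22), but 0.04 over 28 with no minimum.

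Polycomb and other repressor genes had a median of -0.02 over 19 windows. Ezh2, the methyltransferase of Polycomb complex PRC2, was higher in LS in both treatments, at 2.78 in 4HT LS and 1.67 in 4HT ES, and 2.99 in EtOH LS and 1.58 in EtOH ES. Its differences were 0.34 in 4HT and 0.59 in EtOH, with a limma adjusted p of 0.624. Hdac1, a histone deacetylase, was lowest at -0.49 in 4HT and -0.17 in EtOH. DNA methylation genes had a median of 0.19 in 4HT and -0.10 in EtOH over 7 windows, but -0.06 in 4HT over all 10 with no minimum, with Dnmt3l, the cofactor of de novo methylation, at 0.37 and -0.18 and Mbd3 at -0.20 and -0.32. Ribosomal protein genes had -0.02 over 77 windows (Rpl27a 0.40, Rps15 -0.33) and p53 targets -0.05 over 16. Sesn1, a p53 target of the stress response, was at 0.31 in 4HT and 0.29 in EtOH, and Eda2r at -0.45 and 0.04.

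Receptor gene families were mostly too weakly read to compare by level. Of 1039 olfactory receptor genes, 23 windows passed the minimum, with a median of 0.05 in 4HT and 0.06 in EtOH (Olfr788 0.46, Olfr543 -0.33). With no minimum it was 0.01 over 1019 windows. Of 343 vomeronasal receptor genes, 11 windows passed, with a median of 0.17 in place of 0.01 over 248 windows with no minimum (Vmn2r32 0.46 and Vmn2r33 -0.40 in 4HT, but -0.54 and 0.23 in EtOH). Reads in 12 of these 343 windows were found in 4HT LS only, in 8 in 4HT ES only and in 54 in neither. Of 24 clustered protocadherin genes, 0 passed the minimum.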

How the data were processed

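The members are the 4HT LS and 4HT ES columns, and the members, gene lists and rules were chosen with earlier results of these data known. The authors deposited a coverage signal, read here as CPM, for accessible regions and for TSS windows, in 1 column per treatment and fraction with no replicate number, so the 2 libraries of a group were taken as pooled. The submitters' processing notes name mm10 as the build, and featureCounts and DESeq2 as tools without saying for what. The aligner, the peak caller and the replicate handling are not given in the sources used here.

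Intervals without a read have no value. The signal was divided by the smallest value of its column (1 read). Because it is averaged over covered bases, an interval cannot fall below 1 read and losses are understated. Implied depth ran from 6.78 to 11.2 M reads per column. Differences used log2(signal + 0.1), which understates changes of weak intervals, centred by cyclic loess over 8 columns (limma 3.58.1, R 4.3.3), with 1.5-fold as the threshold. The fit had terms for fraction and treatment and 3 residual degrees of freedom, with Benjamini-Hochberg adjustment at 0.05. The pipeline was tested on simulated data. Windows took symbols from RefSeq (GRCm38.p6) for TSSs within 500 bp, and 29774 of 38053 were named. Intervals of shares are exact Clopper-Pearson intervals at 95% (scipy 1.17.1).

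The text names the highest and lowest windows (mean multiple of at least 2, up to 10 each way) and 5 regions each way that were past 1.5-fold with the same sign in EtOH, leaving out predicted symbols among windows. It also names the highest and lowest member of each list and the 3 highest and lowest bins, 1 of which is not reported here. Alternatives were other pseudocounts, minimums, centrings, thresholds, bin widths and fits without G1 or G2.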

Additional observations from a re-analysis of the deposited data

Results flagged for a closer look

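Regions that passed 1.5-fold in opposite directions in the treatments numbered 263, of which 136 were higher in 4HT LS and lower in EtOH LS and 127 the reverse. They compare with 361 regions past 1.5-fold the same way in both. The difference between treatments was not tested, since each group is 1 pooled column. No TSS window was past 1.5-fold in opposite directions.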

How the results depend on the processing

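No paired analysis was possible because each group is 1 pooled column that carries no replicate number, and for the same reason no library could be left out. Counts past 1.5-fold are tied to the scale. Regions in 4HT (1111 higher, 1124 lower) numbered 63 and 105 with a pseudocount of 0.5, 1892 and 1941 with none, 2693 and 2989 with no level minimum, 335 and 296 with a higher one, 1739 and 730 without centring, 1989 and 2338 when only the 2 compared columns had to pass the minimum, and 187 and 244 at 2-fold. Windows (26 higher, 28 lower) numbered 0 and 0 with a pseudocount of 0.5, 367 and 326 with none, 14 and 14 with the higher minimum, 52 higher without centring, 84 and 17 with median centring, and 0 and 2 at 2-fold. Windows of listed genes past 1.5-fold (0) numbered 32 with no pseudocount, 3 with median centring and 1 with 1 Mb medians removed. The fit called 1 region lower with no pseudocount and 1 with no minimum, in place of 0. It called 1 window higher, in place of 2, with no pseudocount, no minimum, median of ratios scaling or without G2, and 0 with the higher minimum, without centring or with 1 Mb medians removed. The adjusted p of Tmem200c was 0.0773, 0.0721, 0.0565 and 0.0777 in the first 4 of these settings, and that of Gm10476 ran from 0.00397 to 0.9999 over all settings that held it. The higher minimum left out both windows.

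The correlation between treatments for regions (0.07) was 0.0482 with no minimum, 0.109 with the higher one and 0.0455 with 1 Mb medians removed. For windows (0.07) it was 0.13 without centring, with median centring and with median of ratios scaling, and 0.0438 with 1 Mb medians removed. With a read in 1 fraction counted only at 2 times the 1-read value or more, the 4HT LS-only share was 63.8% over all regions (1564 against 889). It was 74.4% beyond 100 kb, 60.6% within 1 kb, 70.3% in the sparsest quintile and 59.3% in the densest. This cut is a lower signal in the deeper column, which was 4HT LS. These shares are not adjusted for depth, and the EtOH shares under the cut are not given. For windows it was 0% of 2 in place of 58.7%, and 2 windows are too few to give a direction. In 500 kb bins the correlation of the share read was 0.12 between treatments and -0.17 with TSS density. Over all settings, the 4HT differences of the 12 named windows and the 10 named regions did not change sign. Nor did the fitted differences of the 2 windows called by the fit. Of these values 154 kept their size or call, 47 moved and 8 fell short of the threshold, and the cause was not tested. The EtOH sign used for naming was not followed. Without centring, EtOH LS was above EtOH ES at Ncl (0.395 against 0.342), Glrx5 (0.307 against 0.298) and the region near Tor1a (0.205 against 0.201). Depth limits single intervals, since 29.7% of regions in 4HT LS and 31.8% in 4HT ES stood at 1 read.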
